A study of Mus musculus with 24 samples.

Results

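The let-7 family was followed on miRNA arrays of lungs from SP-C/c-raf transgenic and wild-type (WT) mice. It comprises 9 of the 611 mouse miRNAs on the array: mmu-let-7a, mmu-let-7b, mmu-let-7c, mmu-let-7d, mmu-let-7e, mmu-let-7f, mmu-let-7g, mmu-let-7i and mmu-miR-98. They were picked by name as main strands that share the let-7 seed. All 9 were detected on at least 6 of the 24 arrays and were tested together with the other miRNAs that met this limit, 120 in all. The 4 groups held 6 arrays each, 1 animal per array: transgenic males (M c-Raf), transgenic females (F c-Raf), WT males (M WT) and WT females (F WT), all aged 4 to 6 months, with no further agent given in the labels. The transgene is c-Raf-1-BxB, a c-Raf kinase made oncogenic by deletion of its NH2-terminal part, and it is driven by the promoter of surfactant protein C (SP-C), a gene of alveolar type II epithelial cells. The study's methods describe cells microdissected from frozen sections and, for array labeling, RNA isolated from each lung. Whether dissected cells or whole lung entered these arrays is not clearly stated there. The labels name the tissue of all 24 arrays, WT included, as lung adenocarcinoma, while the methods call the WT tissue normal lung. The strain is not given in the sources used here.

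A miRNA is a short RNA that guides a silencing complex to messenger RNAs, mostly through its seed, the bases 2 to 8 counted from its 5′ end. The let-7 miRNAs rise as tissues mature, are abundant in adult lung and are known to repress Ras genes, Hmga2, Myc and Lin28, while the LIN28 proteins block the maturation of let-7 precursors. Ras acts directly upstream of the Raf kinases, which is why this family is of interest in a c-Raf model.

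The mature sequences, taken from RefSeq, are shown because the members differ by so few bases that array probes may share signal between them. The seed is in capitals. All 9 names had an entry, and all 9 carry the same seed. Of the 1674 mature sequences listed, 11 carry it at bases 2 to 8, the others being let-7k and miR-1961, which were not among the members.

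let-7a: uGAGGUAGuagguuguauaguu
let-7b: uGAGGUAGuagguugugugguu
let-7c: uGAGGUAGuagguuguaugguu
let-7d: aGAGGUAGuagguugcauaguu
let-7e: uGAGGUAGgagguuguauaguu
let-7f: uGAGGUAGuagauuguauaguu
let-7g: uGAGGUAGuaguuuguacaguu
let-7i: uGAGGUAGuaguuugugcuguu
miR-98: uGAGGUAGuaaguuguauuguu

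Against let-7a, with positions counted from the 5′ end, let-7c differs by A19G alone and let-7b by A17G and A19G; no other member has A19G. let-7f differs by G12A and let-7e by U9G. let-7d differs by U1A and U16C. let-7g carries G12U and U18C, and let-7i carries these changes together with A17G and A19U. miR-98 differs by G11A and A19U.

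These 9 mature miRNAs are cut from 12 hairpin precursors in the RefSeq table (build GRCm38.p6), since let-7a, let-7c and let-7f each come from 2 genes whose products the array cannot tell apart. Several of the genes lie beside each other: within 10000 bases of one another are let-7a-1, let-7f-1 and let-7d on chromosome 13, let-7c-2 and let-7b on chromosome 15, and let-7f-2 and miR-98 on chromosome X. In the table, the hairpins of let-7a-2 (chromosome 9), let-7c-1 (chromosome 16) and let-7e (chromosome 17) have miR-100, miR-99a and miR-125a as neighbours within the same distance. For let-7g on chromosome 9 and let-7i on chromosome 10 the table has no other miRNA hairpin that close. A hairpin that the table lacks would be missed in this search. A known feature of let-7 precursors is the motif GGAG between the 2 arms, which LIN28 proteins bind. The letters GGAG, searched on the precursor strand between the 5′ and 3′ arms, were found in 9 of the 12 hairpins and not in those of let-7b, let-7c-2 and miR-98. Of all 645 mouse hairpins of the table with both arms listed, 53 (8.22%) held them there. Below are the hairpins of let-7b and let-7c-2, and of let-7g and let-7f-1 for comparison, with GGAG in capitals where present.

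let-7b, chr15:85707319-85707403, plus strand: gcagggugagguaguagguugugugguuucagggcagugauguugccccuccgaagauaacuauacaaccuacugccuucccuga
let-7c-2, chr15:85706603-85706697, plus strand: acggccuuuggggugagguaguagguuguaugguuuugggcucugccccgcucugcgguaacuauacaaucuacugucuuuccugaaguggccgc
let-7g, chr9:106178840-106178927, plus strand: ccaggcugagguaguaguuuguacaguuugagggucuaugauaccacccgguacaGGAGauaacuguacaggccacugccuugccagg
let-7f-1, chr13:48537829-48537917, minus strand: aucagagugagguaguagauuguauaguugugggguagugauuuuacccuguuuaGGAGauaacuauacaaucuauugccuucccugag

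These letters only describe the precursors, and the arrays measured mature strands. Of the hairpins not shown, that of let-7c-1, the other gene of let-7c, holds GGAG, and that of miR-98 does not. A link between the motif and the array values was not tested.

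The arrays differed widely in brightness, here the 75th percentile of background-subtracted spot intensity over the 27 mouse miRNAs detected on every array. It ran from 34.9 units (M c-Raf replicate 6) to 1212 units (M c-Raf replicate 4), and 38 to 179 mouse miRNAs were detected per array. Each miRNA's median spot intensity was divided by this brightness, set to at least 0.01 (the floor, -6.64 on the log2 scale) and given as log2, which is called the scaled intensity below. The members are themselves a large part of the scale: let-7a, let-7b, let-7c, let-7d, let-7e, let-7f and let-7i make up 7 of the 27 miRNAs, and 43.7% to 57.8% of the spots above the percentile belonged to members. let-7g was detected on 23 arrays and miR-98 on 16. Levels of different members come from different probes and were not set against each other. M WT replicate 4, with 52.8 units the dimmest of its group, stood apart from its group for several members. A slide carried 4 arrays, 1 per group, and each group kept the same position on all 6 slides, so position and group cannot be told apart.

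Whether let-7 miRNAs were regulated with the c-Raf transgene was asked in each sex and over both sexes. With the scaling used here let-7b and let-7c were lower in c-Raf than in WT, and let-7a, let-7d, let-7f, let-7g and let-7i were higher. let-7e and miR-98 lay near 0. The percentile was also taken over every non-control spot, which is called the non-control scaling below. The methods name the percentile but not the spots that entered it, and the deposited table is scaled by the percentile of all spots. With the non-control scaling let-7b, let-7c, let-7e and miR-98 were above 0 over both sexes too. With the files' total gene signal let-7a was at -0.02 over both sexes. Apart from miR-98, each member had the same sign in the 2 sexes. Most of these differences did not pass the test. In males none of the 9 members was called by limma at an adjusted p under 0.05, beside 2.5% of the 120 miRNAs. There 2 members and 26 of the 120 had an unadjusted limma p under 0.05. In females none was called, beside 5% of the 120, and 1 member and 17 of the 120 had an unadjusted limma p under 0.05. Over both sexes 1 member was called, let-7g, beside 15% of the 120 miRNAs, so the share of members was near the background. An unadjusted limma p under 0.05 was reached by 5 members and by 38 of the 120. The members' median difference was 0.26 for males, 0.12 for females and 0.19 for the sexes combined, against 0.08, 0.03 and 0.09 for all 120.

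**Figure D1:**
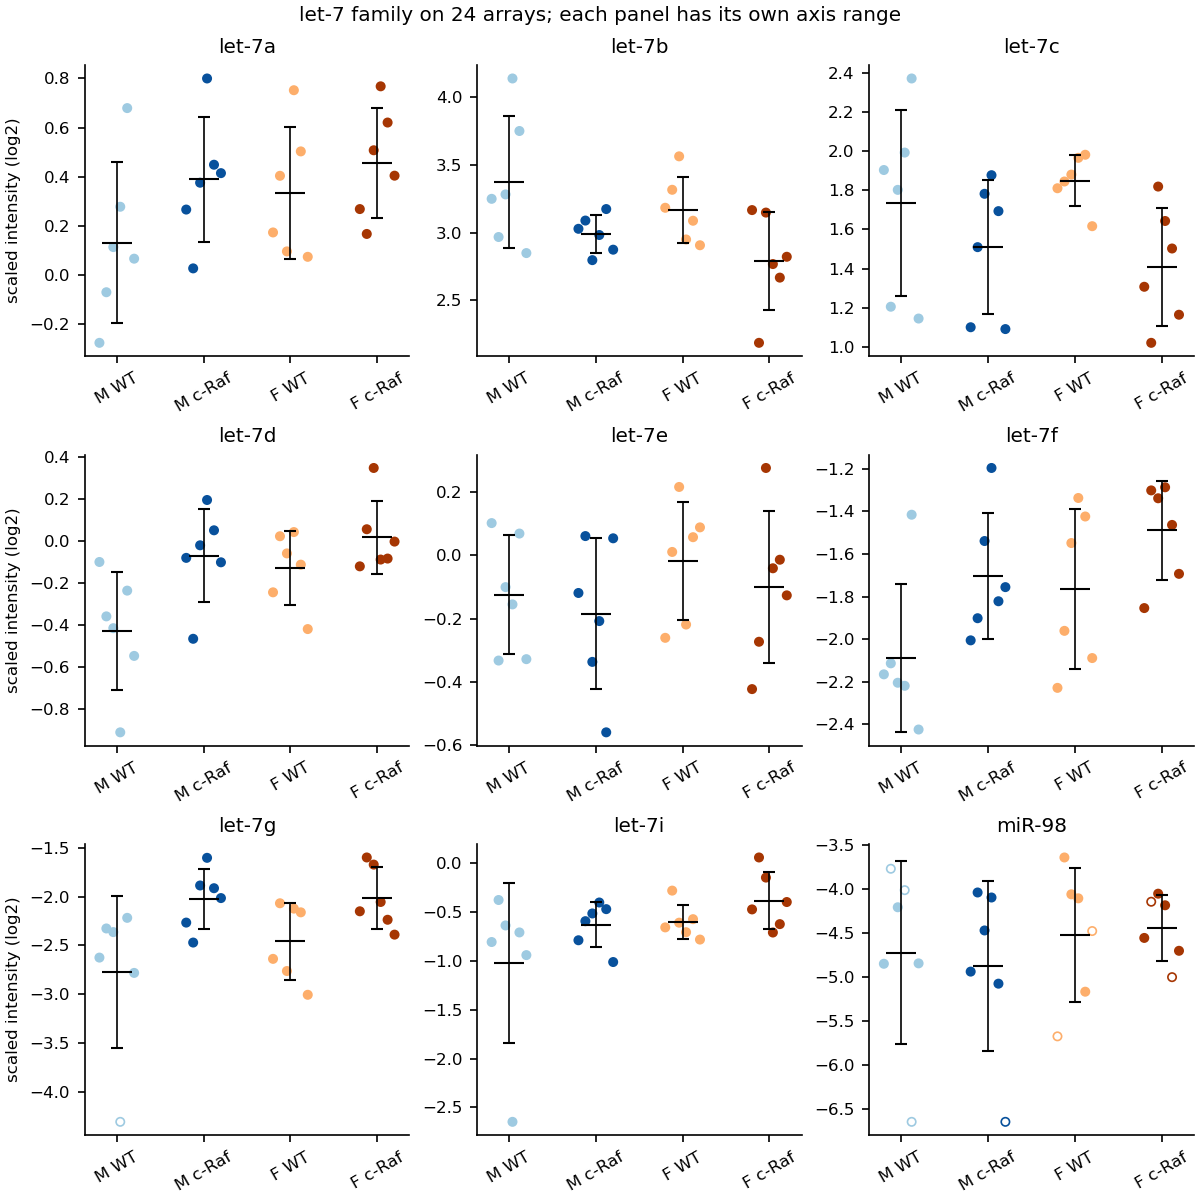
Scaled intensity (log2) of the 9 let-7 members on 24 arrays, with 1 point per array in the groups M WT, M c-Raf, F WT and F c-Raf, open where the member was not detected, and black lines for the mean and SD (n = 6). The groups overlap for every member, and M WT replicate 4 is the lowest point for let-7g (-4.31) and let-7i (-2.65).

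let-7b was lower in c-Raf lungs of both sexes with the scaling used here. In males its difference lay at 0.32 with the percentile over every non-control spot. With the deposited table, which is scaled by the percentile of all spots, it lay at 0.34. The M c-Raf arrays ran from 2.80 to 3.17 with a median of 3.01, and the M WT arrays from 2.85 to 4.14 with a median of 3.27. The F c-Raf arrays ran from 2.19 to 3.17 with a median of 2.80, and those of F WT from 2.91 to 3.56 with a median of 3.14. The groups overlapped in both sexes, the highest M WT value being that of replicate 4 and the lowest F c-Raf value that of replicate 2. The difference of c-Raf to WT was -0.38 in males (SE 0.20, limma adjusted p = 0.242) and -0.38 in females (SE 0.20, adjusted p = 0.429). Without M WT replicate 4 the male difference was -0.23 (adjusted p = 0.514). Over both sexes it was -0.38 (SE 0.14, adjusted p = 0.0658), a ratio of 0.769, with 10 of 12 same-slide pairs in this direction. Within each of the 4 scan batches let-7b was lower in c-Raf, with differences of -0.18 to -1.16 in males and -0.02 to -0.77 in females. The -1.16 is that of scan 1, which holds M WT replicate 4. Scans 1 and 3 held 1 slide each, so a difference within them sets 1 array against 1 array. This limit holds for the other members below as well. Under the non-control scaling the median of all 120 miRNAs was 0.61 over both sexes and let-7b lay at 0.03, below that median.

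let-7c, 1 base away from let-7b and encoded beside it at 1 of its 2 genes, showed the same direction, but lay above 0 in males with these 2 sources of scale and with quantile normalization (0.47, 0.50 and 0.10). M c-Raf arrays had a scaled intensity of 1.09 to 1.88 (median 1.60) and M WT arrays one of 1.14 to 2.37 (median 1.85). F c-Raf arrays had 1.02 to 1.82 (median 1.40) and F WT arrays 1.62 to 1.98 (median 1.86). The female groups overlapped only through the 2 highest F c-Raf arrays, replicates 3 and 4, and through the lowest F WT arrays. The difference was -0.23 in males (SE 0.20, adjusted p = 0.433), -0.44 in females (SE 0.20, adjusted p = 0.280) and -0.33 over both sexes (SE 0.14, adjusted p = 0.0999), with 11 of 12 same-slide pairs lower in c-Raf. The male difference was -0.15 without M c-Raf replicate 1, -0.14 without M c-Raf replicate 6, -0.10 without M WT replicate 5 and -0.35 without M WT replicate 6. With the slide as a block the difference over both sexes was called (SE 0.10, adjusted p = 0.0247). In females let-7c was lower within all 4 scans; in males it was lower within 3 and at 0.14 within scan 4. Under the non-control scaling it lay at 0.07 over both sexes, again below the median of all miRNAs.

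let-7g had the largest difference of the family over both sexes. Its values lay between -2.47 and -1.60 (median -1.97) on the M c-Raf arrays and between -4.31 and -2.22 (median -2.49) on the M WT arrays. On the F c-Raf arrays they lay between -2.39 and -1.60 (median -2.10), and on the F WT arrays between -3.01 and -2.07 (median -2.40). The groups overlapped, and the lowest M WT value, that of replicate 4, was the 1 array on which let-7g was not detected. The difference was 0.74 in males (SE 0.28, adjusted p = 0.143), 0.44 in females (SE 0.28, adjusted p = 0.466) and 0.59 over both sexes (SE 0.20, adjusted p = 0.0442), a ratio of 1.51, with 10 of 12 same-slide pairs higher in c-Raf.

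The call of let-7g lay near the threshold, and it changed with the arrays kept and with how the spots were summarised. Of 24 fits with 1 array left out, 13 kept the call, and the difference stayed between 0.44 and 0.65. Without M WT replicate 4 the male difference was 0.44, and that over both sexes was 0.44 (SE 0.14, adjusted p = 0.0292). The call was lost on leaving out any 1 of 11 arrays, namely M c-Raf replicates 3, 4, 5 and 6, F c-Raf replicates 1, 2, 3 and 4, and F WT replicates 1, 3 and 6, with adjusted p values up to 0.0780. It was also lost when the members were kept out of the scale (0.58, adjusted p = 0.0673), when the log2 values of the 2 probes were averaged (0.51, adjusted p = 0.152) and under 8 other settings. Within scan 1, which holds M WT replicate 4, the male difference was 2.70, and within the other 3 scans it lay between 0.17 and 0.54. In females it lay between 0.07 and 0.78 within the 4 scans. With normexp background correction the male difference was -0.07, while the median of all miRNAs was -0.79.

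The other members on the higher side were let-7a, let-7d, let-7f and let-7i, and none was called with the settings used here. let-7a, let-7d and let-7f share the cluster on chromosome 13. let-7f, the next largest, had a mean of -1.70 ± 0.29 (SD, n = 6) in M c-Raf against -2.09 ± 0.35 in M WT, and of -1.49 ± 0.23 in F c-Raf against -1.76 ± 0.38 in F WT. Its difference was 0.39 in males and 0.28 in females, and over both sexes 0.33 (SE 0.13, adjusted p = 0.0887); with the slide as a block it was called (adjusted p = 0.0311). It was higher in c-Raf within all 4 scans in each sex, though at -0.09 in males with normexp. let-7d differed by 0.36 in males and 0.15 in females (-0.12 in females with the total gene signal of the files and -0.01 with quantile normalization). Over both sexes it differed by 0.25 (SE 0.10, adjusted p = 0.0832), with 10 of 12 same-slide pairs higher.

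let-7a had a mean of 0.39 ± 0.25 in M c-Raf against 0.13 ± 0.33 in M WT, and of 0.46 ± 0.22 in F c-Raf against 0.33 ± 0.27 in F WT. Its difference over both sexes was 0.19 (SE 0.12, adjusted p = 0.309), and -0.02 with the total gene signal. let-7i differed by 0.39 in males and 0.22 in females (-0.01 with the total gene signal), and by 0.30 over both sexes (SE 0.19, adjusted p = 0.309), but M WT replicate 4 was far below its group at -2.65, and without it the male difference was 0.06 and that over both sexes 0.14. On leaving out 1 array the female difference of let-7a ran from 0.06 to 0.21, that of let-7d from 0.08 to 0.18, that of let-7f from 0.18 to 0.36 and that of let-7i from 0.13 to 0.28. Neither difference passed the test.

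let-7e and miR-98 were the members with the smallest differences. let-7e had a mean of -0.18 ± 0.24 in M c-Raf against -0.12 ± 0.19 in M WT, and of -0.10 ± 0.24 in F c-Raf against -0.02 ± 0.19 in F WT, and differed by -0.07 over both sexes (SE 0.10, adjusted p = 0.678). Under the non-control scaling it lay at 0.34. miR-98, the member detected on the fewest arrays, was detected on 5 of the M c-Raf arrays, 3 of M WT, 4 of F c-Raf and 4 of F WT, and lay at the floor on 1 M c-Raf and 1 M WT array. Its difference over both sexes was -0.04 with an SE of 0.33 (adjusted p = 0.952), so its error was more than 1.5 times that of any other member.

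**Figure D2:**
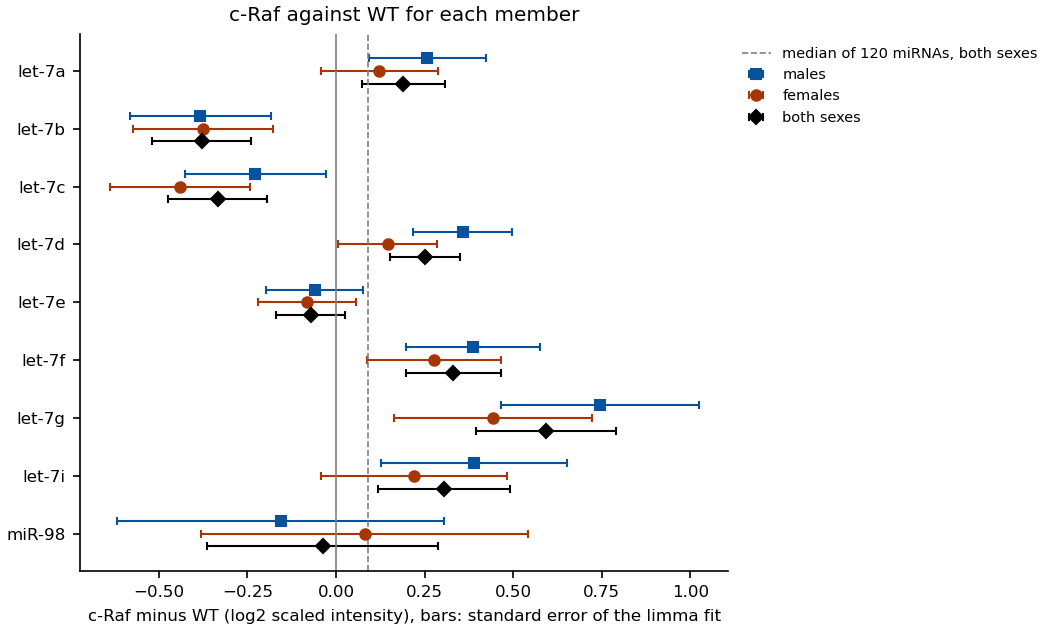
Difference of c-Raf to WT in log2 scaled intensity for each member, by sex and for the sexes combined, with the standard error of the limma fit as bars and the median of the 120 tested miRNAs over both sexes (0.09) as a dashed line. let-7b and let-7c lie below 0 in each comparison (above 0 in males and over both sexes under the non-control scaling). let-7g lies highest at 0.59 over both sexes, and most bars come close to 0 or cross it.

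Among all 120 miRNAs ordered by their difference over both sexes, let-7b held place 25 and let-7c place 28 from the lowest, and let-7g place 108, so that no member was at either end. Of the 15 alternatives tried with all or all but 2 arrays, 8 only rescale arrays, change the miRNAs tested or add a block and leave the gaps between the members other than miR-98 as they are, so 7 could change their order. Over both sexes let-7b was the lowest and let-7g the highest member under all 7 of these, and the gap between the difference of let-7b and that of let-7g lay between -0.60 and -1.23. In males let-7b was lowest and let-7g highest under 6 of the 7; normexp put miR-98 lowest and let-7a highest. In females let-7c was lowest with the settings used here, and of the 6 alternatives that change the gaps there 2 put let-7c and 4 put let-7b lowest, while 5 put let-7g highest and normexp miR-98. Across the settings the median of all miRNAs ran from -0.79 to 1.01 in males and from -0.08 to 0.61 over both sexes. Against that median let-7b and let-7c were lower and let-7g higher over both sexes under all 16 settings, many of which shift members and median together; in males let-7b and let-7c lay above it under normexp, and in females let-7g lay below it under normexp.

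**Figure D3:**
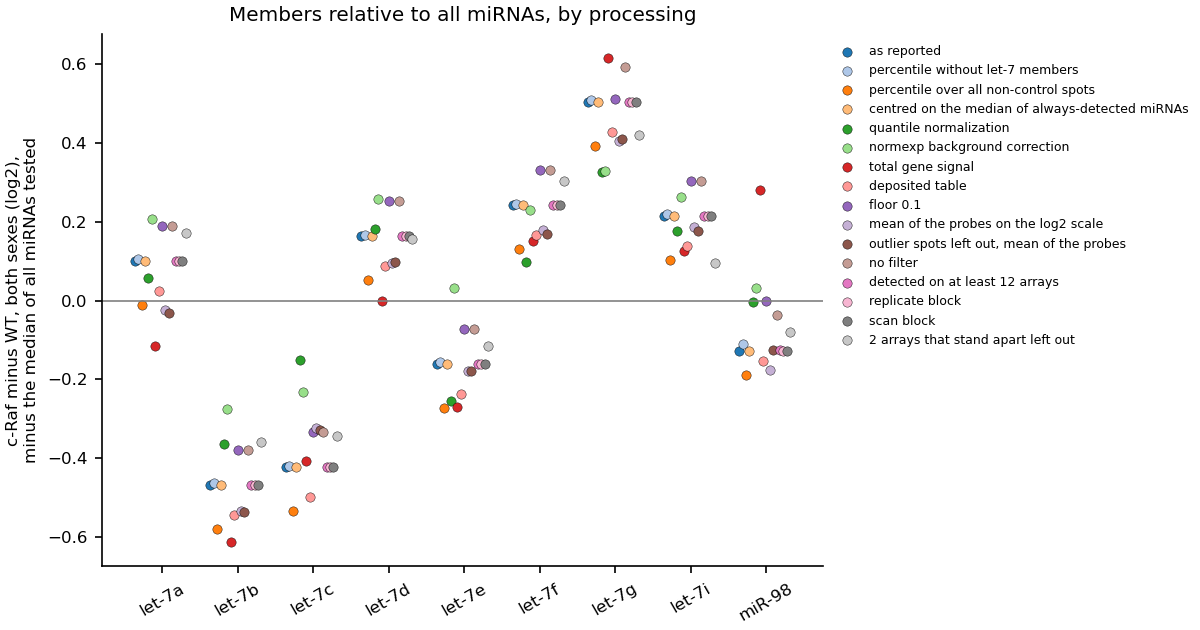
Difference of c-Raf to WT over both sexes (log2) for each member, minus the median difference of all miRNAs tested under the same setting, with 1 point per setting. let-7b and let-7c lie below 0 and let-7f, let-7g and let-7i above it under every setting shown, while let-7a, let-7e and miR-98 fall on both sides and the lowest point of let-7d is at 0.

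Since a scale factor cancels within an array, each member was also set against the median of the 7 members detected on every array. This comparison was chosen after the values were seen and was not tested. The reference includes let-7b, let-7c and members on the higher side, so it can shift when they do. Over both sexes the let-7b difference was -0.38 in scaled intensity and -0.49 on this scale. How many of all tested miRNAs reach as many pairs, or show no overlap, on this scale was not counted. On this scale let-7b was lower in c-Raf than in WT on 12 of 12 same-slide pairs, against 10 of 12 in scaled intensity. Its mean differences on this scale were -0.58 in males and -0.41 in females. In males the c-Raf arrays ran from 2.79 to 3.13 and the WT arrays from 3.18 to 4.30, with no overlap, though these groups overlapped in scaled intensity. In females 2.13 to 3.29 overlapped with 2.83 to 3.47. let-7c was likewise lower on 12 of 12 pairs, against 11 of 12 in scaled intensity, with mean differences of -0.42 in males and -0.47 in females. let-7g was higher on 10 of 12 pairs, by 0.55 in males and 0.41 in females, let-7f on 9 of 12 and let-7i on 9 of 12. let-7e was lower on 8 pairs and higher on 2.

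**Figure D4:**
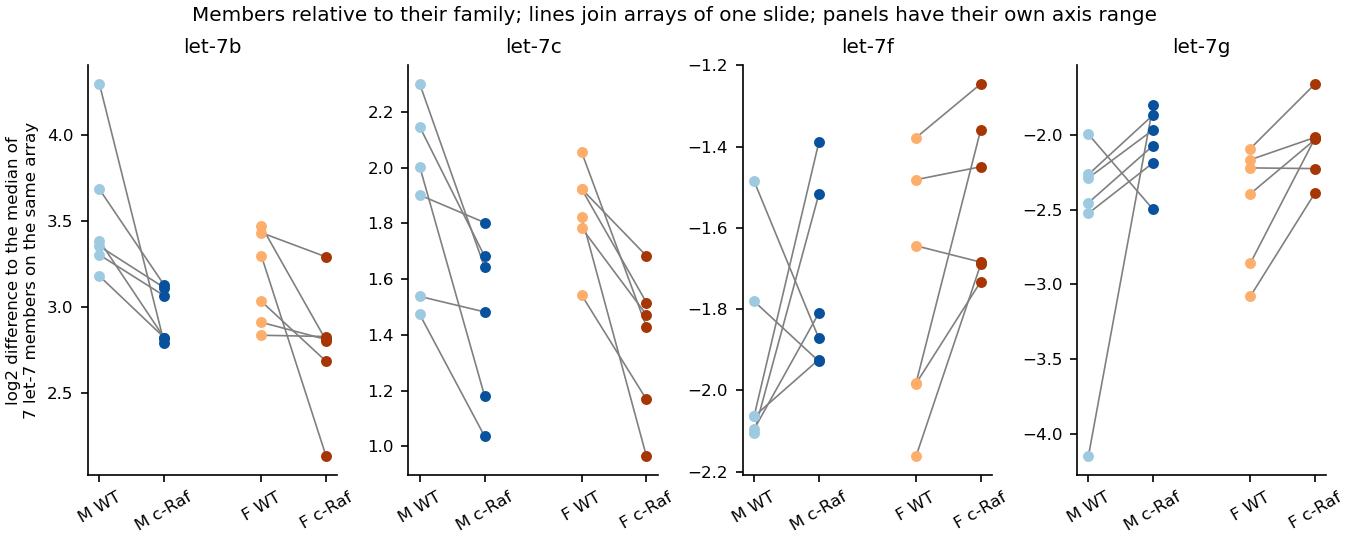
log2 scaled intensity of let-7b, let-7c, let-7f and let-7g minus the median of the 7 always-detected let-7 members on the same array, for the 4 groups, with lines joining the WT and c-Raf arrays of a slide. On all 12 lines of let-7b and of let-7c the c-Raf end is the lower one, and on 10 of 12 lines of let-7g it is the higher one. The reference was chosen after the values were seen, and how many of all tested miRNAs reach such counts was not counted.

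Each member was read by 2 probes in 10 spots each, and the probes were fitted apart. The brighter probe of let-7a exceeded the dimmer by 2.11 on the log2 scale and that of let-7c by 3.15, with the others between them except for miR-98 (0.39). A median over the 20 spots therefore falls between the spots of the 2 probes for most members. Over both sexes 2 of the 18 member probes were called, both of let-7b, beside 11.7% of all 265 probes. The brighter let-7b probe differed by -0.42 (SE 0.11, adjusted p = 0.0117) and the dimmer by -0.44 (SE 0.14, adjusted p = 0.0488). The let-7g probes differed by 0.61 (SE 0.24, adjusted p = 0.105) and 0.41 (SE 0.29, adjusted p = 0.439), and were not called. Both probes of a member had the same sign for all 9 members. When the log2 values of the 2 probes were averaged, let-7b was the called member over both sexes (-0.43, adjusted p = 0.0218), and with the total gene signal of the files it was too (-0.52, adjusted p = 0.0041) and also in females (-0.58, adjusted p = 0.0460). No member probe was called in males or in females alone.

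**Figure D5:**
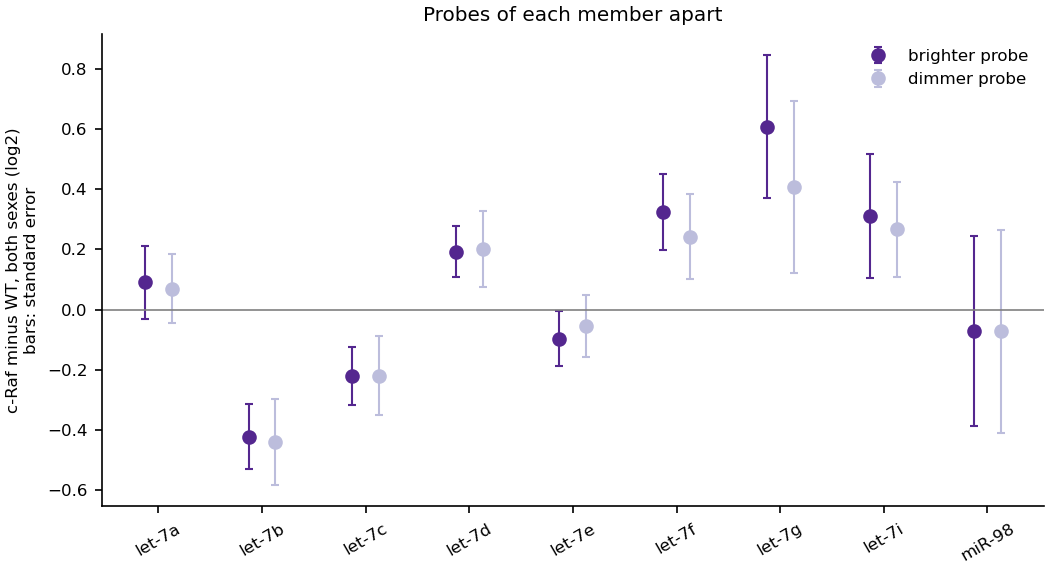
Difference of c-Raf to WT over both sexes (log2) for the brighter and the dimmer probe of each member, with the standard error of the limma fit as bars. Both let-7b probes lie at -0.42 and -0.44, and the 2 probes of each member lie on the same side of 0.

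It was tested next whether the effect of c-Raf was unequal in the sexes, and whether males and females of 1 genotype differed. No member was called in any of these 3 comparisons. For the effect in males minus that in females the members lay between -0.24 and 0.30, with the smallest limma adjusted p at 0.865. An unadjusted p under 0.05 was reached by 0 members and by 4 of the 120 miRNAs, and 0% of the 120 were called. For M WT against F WT 1 of 9 members and 49 of all 120 miRNAs lay above 0. The members ran from -0.42 to 0.21 (median -0.20, against -0.12 for the 120), or from -0.34 to 0.05 without M WT replicate 4. With all arrays 1 member and 11 of the 120 had an unadjusted limma p under 0.05. No member was called, beside 0% of the 120. Under normexp the median of the 120 was 0.46 in this comparison, so these signs hold for the scaling used. For M c-Raf against F c-Raf 2 of 9 members lay above 0, and the members ran from -0.44 to 0.20. No member was called, beside 2.5% of the 120, and 0 members and 10 of the 120 had an unadjusted limma p under 0.05. These p values do not show that the sexes were alike.

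The order of the 4 groups was read off for the members whose values carry the comparison. For let-7b the highest mean was that of M WT (3.37 ± 0.49), followed by F WT (3.17 ± 0.25), then M c-Raf (2.99 ± 0.14) and last F c-Raf (2.79 ± 0.36). For let-7g the order ran from F c-Raf (-2.02 ± 0.32) and M c-Raf (-2.03 ± 0.31), which hardly differed, to F WT (-2.46 ± 0.39) and M WT (-2.77 ± 0.78). Without replicate 4 the M WT mean was 3.22 ± 0.35 (SD, n = 5) for let-7b and -2.46 ± 0.23 for let-7g, the latter like that of F WT. In both orders the values of neighbouring groups overlapped, and M c-Raf was not tested against F WT.

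How alike the members' patterns were was described by the SD, over the 24 arrays, of the difference between 2 members. The 3 closest pairs were let-7a and let-7f (0.25), let-7d and let-7f (0.27), and let-7a and let-7d (0.28), which are the members of the cluster on chromosome 13. let-7g and let-7i followed at 0.29, which lie on different chromosomes and differ by 2 bases, and then let-7b and let-7c at 0.31, which differ by 1 base. let-7a and let-7c also differ by 1 base but had an SD of 0.38, and let-7a and let-7e, 1 base apart, had 0.35. The 8 pairs with miR-98 had SDs of 0.83 to 1.00, and let-7b and let-7g had 0.85. All points share the array and its scale, and signal shared between near-identical members was not tested. Of the 111 tested miRNAs outside the family, the 5 closest to the median of the 7 always-detected members were miR-200b* (SD 0.15), miR-103 (0.28), miR-23a (0.29), miR-199a-3p (0.29) and miR-24 (0.30). The median SD was 0.65 over the 111 and 0.48 over the 20 that were detected on every array. Each member's SD to the median of the other always-detected members ran from 0.24 (let-7f) to 0.80 (miR-98). let-7b (0.47) and let-7g (0.51) were less close than the non-members named, so a close pattern was not particular to the family. miR-200b* lay at the floor on all 24 arrays, so its SD is only that of the family median; it is no pattern.

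The 2nd strands of the let-7 hairpins, called passenger strands and marked by a star, were mostly out of reach. Of the 9 listed, 7 are on the array, and let-7a*, let-7c-1*, let-7g* and let-7i* were detected on 0 of 24 arrays, let-7f* on 1, let-7b* on 3 and let-7d* on 10. let-7d* was the 1 that was tested, and it differed by -0.57 over both sexes (SE 0.42, adjusted p = 0.388). The 5 miRNAs of the miR-99/100 and miR-125 families listed as cluster partners were all tested. In the RefSeq table used, miR-100, miR-99a and miR-125a had hairpins within the 10000 bases named above. Of the 5, 0 were called in either sex or over both, and their median difference over both sexes was -0.04. miR-99b differed by 0.09 over both sexes (SE 0.30). miR-125a-5p, from the let-7e cluster, differed by -0.12 (SE 0.19), and miR-125b-5p by -0.06 (SE 0.21), with 0.21 in males and -0.32 in females. miR-99a, the neighbour of let-7c-1, differed by 0.40 (SE 0.26, adjusted p = 0.332), with 0.87 in males and -0.07 in females.

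Some miRNAs from lists of cell type markers of the lung were called between the same groups, beside 15% of all 120 miRNAs over both sexes. Of 5 epithelial miRNAs, 4 were tested and 2 were called higher in c-Raf over both sexes, miR-200a (0.73, SE 0.21, adjusted p = 0.0217) and miR-429 (0.73, SE 0.20, adjusted p = 0.0181). Their summed scaled level ran from 0.671 to 1.97 in M c-Raf against 0.611 to 1.39 in M WT, and from 1.13 to 1.86 in F c-Raf against 0.827 to 1.61 in F WT. The endothelial miR-126-3p was higher by 0.75 (SE 0.21, adjusted p = 0.0217), with a summed endothelial level of 0.198 to 0.459 in M c-Raf against 0.0740 to 0.324 in M WT, and of 0.286 to 0.519 in F c-Raf against 0.223 to 0.320 in F WT. miR-126-5p was detected on 0 arrays.

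The mesenchymal miR-214 was lower, with a difference of -0.86 (SE 0.14, adjusted p = 0.000156); it was 1 of 2 tested among 3, and miR-199a-3p, the other, was at 0.21 (SE 0.13, adjusted p = 0.301). The list's summed level ran from 0.221 to 0.266 in M c-Raf against 0.271 to 0.465 in M WT, and from 0.224 to 0.272 in F c-Raf against 0.226 to 0.350 in F WT. The erythroid miR-486 differed by -1.10 with an SE of 0.23 (adjusted p = 0.00214), as 1 of 2 tested among 3, while miR-451 was at 0.38 (SE 0.28, adjusted p = 0.396). The summed erythroid levels were 0.102 to 0.184, 0.110 to 0.521, 0.102 to 0.197 and 0.122 to 0.253 in the same order. Of the ciliated, leukocyte, smooth muscle and striated muscle lists 3 of 3, 3 of 5, 0 of 2 and 2 of 5 were tested and 0 were called in any of the 3 comparisons. miR-142-3p, miR-142-5p, miR-144, miR-1, miR-206 and miR-208a were detected on 0 arrays. The part of the cell makeup in the let-7 values was not tested, and fewer cells of a type cannot be told apart from less miRNA per cell.

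Brightness was set against the median scaled intensity of the 7 always-detected members over the 24 arrays. Pearson's r was 0.307 (permutation p = 0.144) and Spearman's rho 0.291 (permutation p = 0.166). Leaving out the 2 arrays whose brightness was most unlike the median gave an r of 0.308. Within scans 2 and 4, with 8 arrays each, r was 0.134 (exact permutation p = 0.749) and 0.454 (exact permutation p = 0.248), and scans 1 and 3 held too few arrays. With the members kept out of the scale r was 0.441 (permutation p = 0.0318) and rho 0.486 (permutation p = 0.0171). Without the 2 extreme arrays this r was 0.397 (permutation p = 0.0663) and rho 0.448 (permutation p = 0.0376). Within scans 2 and 4 this r was 0.358 (exact permutation p = 0.391, n = 8) and 0.448 (exact permutation p = 0.265, n = 8). These are 2 relations, and the adjusted p values (Benjamini-Hochberg) of r are 0.144 and 0.0636. The median brightness of the groups ran from 176 units in M WT to 433 in M c-Raf.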

How the data were processed

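RNA of 24 lungs was hybridised, 1 animal per array, to 1-colour Agilent mouse miRNA arrays. The deposited scanner files, made with Agilent Feature Extraction (10.7.3.1 per the file headers), hold the background-subtracted intensity of each spot, unscaled between arrays. The authors' deposited table holds median intensity per miRNA times 1 factor per array (1000 over the 75th percentile of all spots; on the array with the fewest, 99.6% of values lay within 1% of this); its rows were matched by name regardless of letter case. Scaling and the floor are described in the text. All 24 arrays entered 1 model with a mean per group (limma 3.58.1, R 4.3.3; lmFit and eBayes, two-sided, 20 residual and 1.80 prior degrees of freedom), with Benjamini-Hochberg adjustment across 120 miRNAs (or 265 probes). The fit was tested on simulated data. Array number limits the precision. Replicate numbers equal slides in the file headers, which pairs arrays by slide. Same-slide deviations correlated above 0.1 in 23 of 36 pairs of arrays. For the same-sex pairs of c-Raf with WT this held in 2 of 6 in males and 4 of 6 in females. Slides fell into 4 scan batches, and the scan as a block was an alternative. normexp (offset 50) used median spot signals, as the mean column was not at hand. The methods' test and its threshold were also run. Named are all 9 members, the 5 non-members closest to them, the passenger strands, the cluster partners and the marker lists. Members and lists were chosen with earlier results of these data known.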

Additional observations from a re-analysis of the deposited data

Results flagged for a closer look

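Among 36 sets of 6 arrays (9 members in 4 groups), 3 had 1 array far from the others by Dixon's test, of which chance alone flags about 1 in 20 sets; all 3 lay in M WT. let-7g was at -4.31 on M WT replicate 4, while the other 5 arrays lay between -2.78 and -2.22. let-7i was at -2.65 on the same array, with the others between -0.94 and -0.38. let-7f was at -1.42 on M WT replicate 5, above the others between -2.42 and -2.11.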

How the results depend on the processing

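Under other settings the direction of some members turned. For males, the percentile of every non-control spot put let-7b at 0.32, let-7c at 0.47, let-7e at 0.64 and miR-98 at 0.64, and the deposited table put them at 0.34, 0.50, 0.66 and 0.67. Quantile normalization put let-7c at 0.10 and miR-98 at 0.13, normexp put let-7f at -0.094 and let-7g at -0.072, and the total gene signal put miR-98 at 1.04. For females, every non-control spot gave let-7e 0.034, quantile normalization gave let-7a -0.035 and let-7d -0.012, and the total gene signal gave let-7a -0.18, let-7d -0.12, let-7i -0.011 and miR-98 -0.29. Without M WT replicate 4 and F WT replicate 5, left out together after seeing the data, miR-98 was at -0.048 in females. With the sexes together, every non-control spot gave let-7b 0.028, let-7c 0.073, let-7e 0.34 and miR-98 0.42, the deposited table gave 0.014, 0.059, 0.32 and 0.40, quantile normalization gave miR-98 0.081, and the total gene signal gave let-7a -0.022 and miR-98 0.37. Leaving out 1 array gave let-7e -0.11 to 0.015 in males, and miR-98 -0.54 to 0.20 in males, -0.15 to 0.26 in females and -0.23 to 0.14 for both. The cause of these turns was not tested.

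The count of called members over both sexes, 1 as reported, was 0 with the let-7 members kept out of the percentile, with every non-control spot, centring, quantile normalization, normexp, the deposited table or no filter. It was 3 with the replicate block (let-7c, let-7f and let-7g), and 0 to 3 on leaving out 1 array. It stayed at 1, but for let-7b in place of let-7g, with the total gene signal and with the mean of the probes, with or without outlying spots; the latter settings were chosen after seeing the data. In females the total gene signal gave 1 in place of 0. The methods' test, run on the scaling used here and not on that of the methods, called 0 members at its threshold and 0 after Benjamini-Hochberg. Its count over all 120 miRNAs is not given here, so these counts do not set the members apart from the rest. The 120 tested miRNAs gave 18 calls over both sexes, 32 with the replicate block, 30 with the scan block, 14 with the total gene signal (6 higher and 8 lower, against 13 and 5), 12 with quantile normalization, 7 with a floor of 0.1, 3 with every non-control spot and 0 with normexp; no filter gave 7 of 611 tested and the deposited table gave 0 of 109, with 10 there at an unadjusted p under 0.05 and 1 with normexp. The correlation of brightness and member level was 0.441 with the members kept out of the scale. Of the 5 closest non-members, 4 or 5 were kept on leaving out 1 array. Dim arrays limit miR-98 most, which was detected on 16 of 24.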
